A study of Homo sapiens with 8 samples.

Results

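MALAT1, NEAT1, NORAD, TUG1, PVT1, CYTOR and UCA1 are long noncoding RNAs, transcripts that act without serving mainly as templates for protein. They were taken from an RNA-seq table by their gene symbols, the entry of highest mean level being used where a symbol repeats. All 7 were found, each on 1 entry, among 63816 entries in the table and 15590 that reached 1 TPM (a transcript level per length, scaled to the same total in every sample) in at least 4 of the 8 samples. The cells were labelled Caco-2, an established line from a human colorectal adenocarcinoma, and were stably transfected and selected with G418. The study found no Siglec-XII protein in these cells before transfection. There were 4 samples with the empty vector pcDNA3.1 and 4 with the same vector carrying full-length human SIGLEC12. The methods call the SIGLEC12 plasmid linearized and do not say clearly whether the empty vector was too. SIGLEC12 encodes Siglec-XII, a receptor that in humans no longer binds sialic acid. Selected clones are mentioned for both groups, with a culture number that does not match the samples, and the methods mention repeat libraries of 1 sample. The p-values therefore measure the spread between these samples, which may be technical. Since each group is its own transfection, Siglec-XII and the clone or population that carries it cannot be told apart.

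Facts of the whole series set the frame for the values. SIGLEC12 stood at 0.0399 to 0.122 TPM with the empty vector and at 1582 to 1734 TPM with Siglec-XII, as the labels say. The table holds no read counts, so the depth behind each value is unknown. Mitochondrially encoded genes took 6.67% to 11.2% of the TPM of a sample. Of 15 colon epithelium markers, EPCAM, CDX1 and CDX2 reached 1 TPM in at least 4 samples and 12 did not. Among these 12, KRT20 and FABP1 were listed at 0 in every sample and HNF4A was at most 0.174 TPM. The 3 tested were not called, 2 having an unadjusted p under 0.05. The summed level of the colon list was 710 to 736 TPM with the empty vector and 735 to 792 TPM with Siglec-XII. Of 17 trophoblast markers, 13 passed the same limit, with XAGE3 at 1166 TPM and GATA3 at 402 TPM in the empty vector samples. Their sum ran from 2602 to 2672 TPM with the empty vector and from 2596 to 2658 TPM with Siglec-XII. Most colon markers thus stayed below this limit and most trophoblast markers passed it, which goes against the label. Both lists were chosen with earlier results of these data known, so the contrast is not independent evidence. The identity of the line was not tested and is in doubt, and every value below describes the cells so labelled.

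These RNAs work in different parts of the cell. MALAT1 resides in nuclear speckles, domains rich in splicing factors, and NEAT1 is the scaffold of paraspeckles, nuclear bodies that form around its long isoform. NORAD is mainly cytoplasmic and binds Pumilio proteins, which repress the messenger RNAs they bind. TUG1 has been tied to Polycomb repression, PVT1 lies beside MYC in a region often amplified in carcinomas, and CYTOR and UCA1 are known for raised levels in carcinomas of several organs.

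MALAT1 and NEAT1 are neighbours on the plus strand of chromosome 11 and share an unusual end, which is shown because such ends bear on how an RNA enters a library. The ends of MALAT1 and of the long NEAT1 isoform are cut by RNase P, not polyadenylated, and are protected by a triple helix in which U-rich stretches pair with an A-rich tract. In the lines below, read from GRCh37, capitals mark the U-rich stretches and the A-rich tract. The MALAT1 stretch is chr11:65273500-65273587 and the NEAT1 stretch is chr11:65212924-65213011, both 88 bases long. The annotated NEAT1 gene ends with its stretch, while the annotated MALAT1 gene runs on to 65275544. Which of the annotated MALAT1 transcripts hold the stretch is not given here.
MALAT1: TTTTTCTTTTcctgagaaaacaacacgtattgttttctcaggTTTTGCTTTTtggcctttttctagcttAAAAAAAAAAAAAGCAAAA
NEAT1: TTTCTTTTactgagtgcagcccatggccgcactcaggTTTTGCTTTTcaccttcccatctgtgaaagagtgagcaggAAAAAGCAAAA
The letters searched were TTTCTTTT, TTTTGCTTTT and AAAAAGCAAAA on the transcript strand, in that order and 5 to 60 bases apart. They occurred in transcripts of 2 of 64474 annotated genes (0.0031%), MALAT1 and NEAT1, from which the pattern was written. The NEAT1 stretch closes the long transcript of 22743 bases, and 98.5% of the 31-base words of the short NEAT1 transcript of 3441 bases are also in the long one. The short isoform, whose transcript the table entry names, ends in a poly(A) tail and lacks this element. The table gives 1 value for both isoforms, so they cannot be read apart. The labels describe an rRNA-depleting total RNA kit and the methods of the study a poly(A)-selecting kit, which differ in how they take up ends of this kind. Which was used was not tested.

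NORAD is shown for its Pumilio sites. The transcript of 5401 bases, a single exon on the minus strand of chromosome 20, holds the Pumilio letters TGTANATA 15 times on its own strand and 1 time on the other. Of 5863 annotated transcripts of 5000 to 6000 bases, 46% held these letters at least once, and 3 (0.0512%) held them 15 times or more, NORAD included. The stretch below is chr20:34637625-34637753 of GRCh37, minus strand, with 2 of the sites in capitals.
NORAD: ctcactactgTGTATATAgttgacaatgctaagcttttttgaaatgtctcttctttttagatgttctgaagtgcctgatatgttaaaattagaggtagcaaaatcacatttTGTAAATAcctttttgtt
Of the 31-base words of NORAD 50.8% occurred in transcripts of other annotated genes, 1595 genes in all, so its values are uncertain where reads could be divided. The largest share, 37.6%, was with OVCH1-AS1, which stood at 0.0663 to 0.162 TPM.

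CYTOR is shown beside MIR4435-2HG, a partial copy elsewhere on chromosome 2, because reads of one can be assigned to the other. Of the CYTOR transcript of 2523 bases named in the table, 88.3% aligned to the MIR4435-2HG gene, introns included, with 99.46% identity. Between annotated transcripts, 61.9% of the 31-base words of CYTOR were in MIR4435-2HG and 31.9% of those of MIR4435-2HG in CYTOR. The stretches below are chr2:87928639-87928738 on the plus strand and chr2:112079204-112079303 on the minus strand, and capitals mark the 2 bases that differ in 100. They were picked to show differences, which are sparser elsewhere: of 2227 aligned bases 12 differed or were gapped.
CYTOR: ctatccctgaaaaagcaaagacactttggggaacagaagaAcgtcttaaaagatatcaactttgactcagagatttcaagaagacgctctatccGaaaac
MIR4435-2HG: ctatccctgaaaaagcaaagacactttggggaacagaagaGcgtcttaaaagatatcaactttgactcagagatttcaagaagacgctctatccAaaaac
Single values of CYTOR are uncertain for this reason, and the sum of both genes is given below. For MALAT1, NEAT1, TUG1, PVT1 and UCA1 at most 3.05% of the 31-base words were found in any other annotated gene.

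On the TPM scale, which is per transcript length, the order of mean levels was NORAD, MALAT1, NEAT1, TUG1, PVT1, CYTOR and UCA1. The means over all 8 samples ran from 145 TPM for NORAD to 19.3 TPM for UCA1. Among the 1340 tested entries annotated as lncRNA, NORAD ranked 14, MALAT1 16, NEAT1 29, PVT1 53, CYTOR 66 and UCA1 86. TUG1 is classed as protein-coding in the annotation and was not ranked there. The 2 pairs of neighbours whose ranges over the samples overlapped were TUG1 with PVT1 and CYTOR with UCA1. TUG1 was nevertheless above PVT1 in 8 of 8 samples, and CYTOR above UCA1 in 7 of 8. The ranges of NEAT1 and TUG1, and of PVT1 and CYTOR, missed each other by less than 1 TPM. Together the 7 RNAs gave 397 to 460 TPM per sample, or 2.40% to 2.87% of the TPM of all lncRNA entries.

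**Figure D1:**
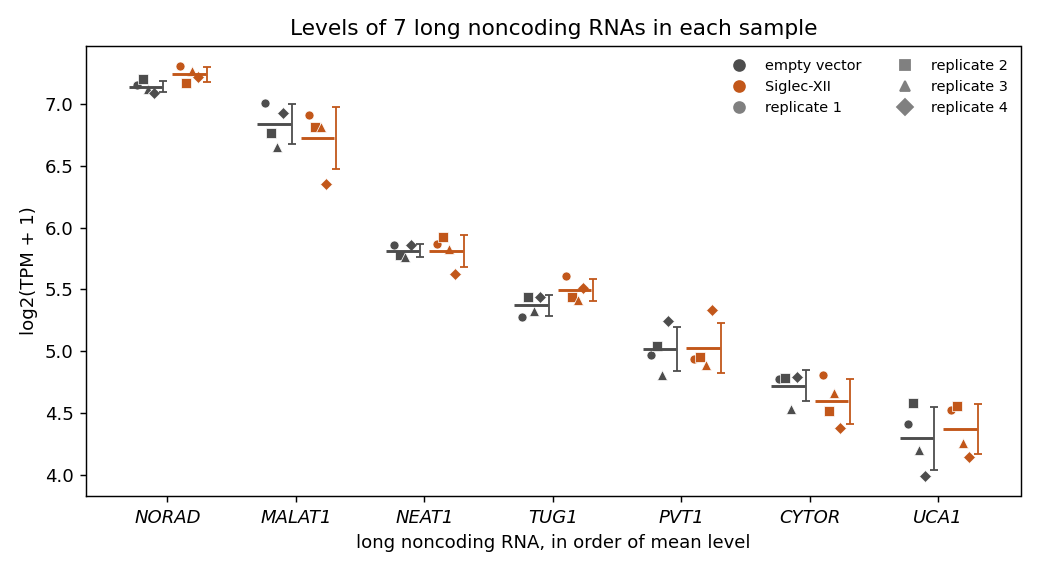
The plot shows log2(TPM + 1) of each RNA in each of the 8 samples, grey for the empty vector and orange for Siglec-XII, with the marker shape giving the replicate number, the horizontal line the group mean and the bar 1 SD. The groups overlap for all 7 RNAs, and Siglec-XII replicate 4 is the lowest MALAT1 sample at 80.8 TPM.

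Whether Siglec-XII cells differ from empty vector cells in these RNAs was asked with limma on log2(TPM + 1), fitted over all 15590 entries. None of the 7 passed an adjusted p of 0.05, 0 had an unadjusted p under 0.05, and the groups overlapped for all 7. Over all tested entries 0.648% passed the adjusted threshold, 16.5% had an unadjusted p under 0.05 and 10.8% had groups that did not overlap. Of the 1340 tested lncRNA entries 6 passed (0.448%) and 7.39% had an unadjusted p under 0.05. The log2 fold change, Siglec-XII minus empty vector, had a median of 0.0078 over the 7 RNAs, 0.031 over the lncRNA entries and 0.067 over all tested entries, and 4 of the 7 were above 0.

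The MALAT1 level was 128, 108, 99.9 and 121 TPM in empty vector replicates 1 to 4 and 119, 112, 112 and 80.8 TPM in Siglec-XII replicates 1 to 4. Siglec-XII replicate 4 stood below every other sample, and the other 3 lay inside the empty vector range. The log2 fold change was -0.12 (95% interval -0.40 to 0.16, limma adjusted p = 0.676). Without Siglec-XII replicate 4 it was 0.0060.

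NEAT1 was even closer between the groups. It stood at 57.1, 53.8, 53.2 and 57.1 TPM with the empty vector and at 57.3, 59.8, 55.9 and 48.2 TPM with Siglec-XII. The highest and the lowest of the 8 values were both Siglec-XII samples. The difference was -0.0030 on the log2 scale (95% interval -0.16 to 0.15, limma adjusted p = 0.987), an interval that runs from 0.896-fold to 1.11-fold.

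The ratio of NEAT1 to MALAT1 does not depend on the total to which a sample is scaled. It was 0.446, 0.499, 0.532 and 0.471 with the empty vector and 0.480, 0.535, 0.501 and 0.597 with Siglec-XII. Siglec-XII replicate 4 had the highest ratio, and the groups overlapped. The mean log2 ratio was -1.04 ± 0.11 (SD, n = 4) and -0.93 ± 0.14 (SD, n = 4), a difference of 0.12 (two-sided exact permutation p = 0.200, 0.400 after adjustment over the 2 single values so tested, where 0.0286 is the smallest possible p).

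NORAD had the narrowest spread and the lowest p of the 7. Its level was 142, 146, 139 and 135 TPM with the empty vector and 157, 143, 153 and 148 TPM with Siglec-XII. Of the Siglec-XII samples 3 lay above every empty vector sample, and replicate 2 lay inside their range. The estimated log2 fold change was 0.099 (95% interval -0.0030 to 0.20, limma adjusted p = 0.315). With the samples set to equal upper quartiles or quantile-normalized it was 0.037 and 0.039, and with the trend with transcript length removed 0.0051.

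TUG1 was at 37.7, 42.4, 39.2 and 42.4 TPM with the empty vector and at 47.8, 42.3, 41.6 and 44.7 TPM with Siglec-XII. Both of the highest values were Siglec-XII samples, while the other 2 lay among the empty vector samples. On the log2 scale the fold change was 0.12 (95% interval -0.019 to 0.26, limma adjusted p = 0.367).

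PVT1 stood at 30.3, 32.0, 27.1 and 37.0 TPM with the empty vector and at 29.5, 30.0, 28.6 and 39.2 TPM with Siglec-XII. Replicate 4 was the highest sample of each group, and the remaining samples of both groups fell between 27.1 and 32.0 TPM. Its log2 fold change was 0.0078 (95% interval -0.26 to 0.27, limma adjusted p = 0.980). It was -0.094 without Siglec-XII replicate 4.

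CYTOR was at 26.4, 26.5, 22.1 and 26.7 TPM with the empty vector and at 27.0, 21.9, 24.3 and 19.8 TPM with Siglec-XII. The 2 lowest values were Siglec-XII samples, but so was the highest. For CYTOR the log2 fold change was -0.13 (95% interval -0.35 to 0.10, limma adjusted p = 0.564). Summed with its copy MIR4435-2HG, the level was 57.4, 63.7, 48.6 and 57.8 TPM with the empty vector and 57.0, 51.4, 58.2 and 50.1 TPM with Siglec-XII. The difference of this sum was -0.064 on the log2 scale (two-sided exact permutation p = 0.600, 0.600 after adjustment).

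UCA1 was the least abundant and, on the log2 scale, the most variable of the 7. Its level was 20.2, 22.9, 17.4 and 14.9 TPM with the empty vector and 22.0, 22.6, 18.1 and 16.7 TPM with Siglec-XII. Replicates 1 and 2 were the higher samples and replicates 3 and 4 the lower ones in both groups. Its fold change was 0.078 on the log2 scale (95% interval -0.23 to 0.39, limma adjusted p = 0.819).

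**Figure D2:**
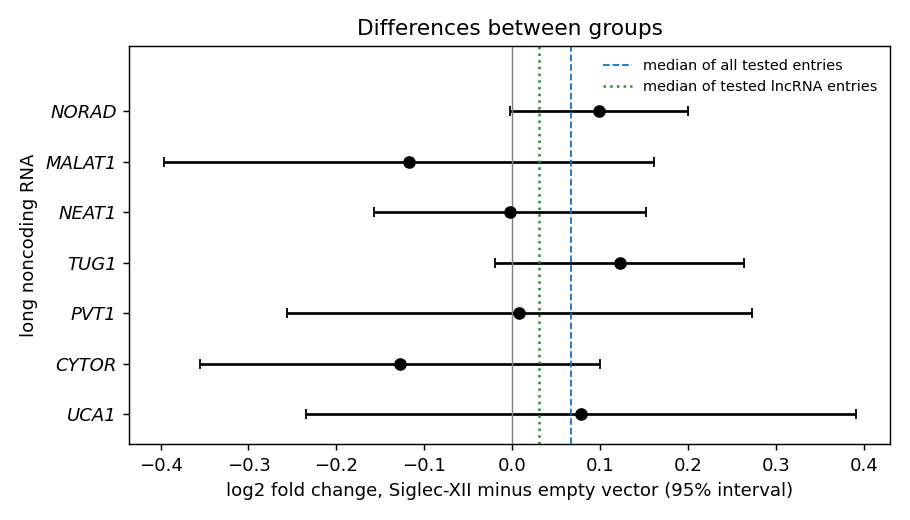
The plot gives the log2 fold change of each RNA, Siglec-XII minus empty vector, as a point with its 95% interval from limma, with a solid line at 0, a dashed line at the median of all tested entries (0.067) and a dotted line at that of tested lncRNA entries (0.031). All 7 intervals include 0, the narrowest belongs to NORAD and the widest to UCA1.

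The 7 RNAs differed in how steady they were within a group. The within-group SD on the log2 scale was 0.053 for NORAD, 0.085 for TUG1, 0.10 for NEAT1, 0.16 for CYTOR, 0.19 for PVT1, 0.21 for MALAT1 and 0.23 for UCA1, against a median of 0.14 over all tested entries. Since low entries vary more, each was also set beside entries whose mean log2 level lay within 0.25 of its own. MALAT1 was more variable than 98.0% of 547 such entries, whose median SD was 0.089. Its largest log2 deviation from a group mean was -0.37, in Siglec-XII replicate 4, and no other exceeded 0.19 in size. PVT1 exceeded 92.6% and UCA1 92.5% of the entries near their levels. NEAT1 was near the middle, above 55.1%, and NORAD exceeded only 11.1%.

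**Figure D3:**
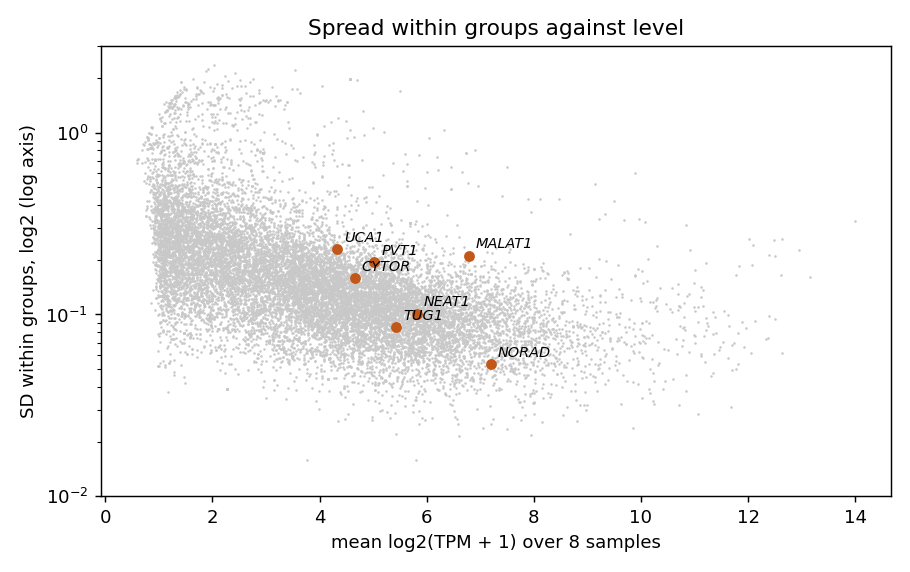
Each grey point is 1 of the 15590 tested entries, with its mean log2(TPM + 1) over 8 samples on the x axis and its SD within groups on the y axis, which is a log axis, and the 7 RNAs are in orange. MALAT1 lies near the upper edge at its level with an SD of 0.21, and NORAD in the lower part with 0.053. The largest MALAT1 deviation was in Siglec-XII replicate 4.

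Within groups, MALAT1 and NEAT1 went up and down together. After the group means were subtracted, their log2 values had a Pearson r of 0.93 over the 8 samples, the highest of the 21 pairs among the 7 RNAs. Without Siglec-XII replicate 4 it was 0.74 over 7 samples. MALAT1 and CYTOR had an r of 0.83, and 0.69 without that sample. PVT1 and UCA1 went in opposite directions, with the lowest r of the 21, -0.49. The median r was 0.32, with 13 pairs above 0. These values share libraries and the TPM denominator of each sample, and they are given as a description.

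Siglec-XII replicate 4 was the lowest sample of its group for 4 of the 7 RNAs, MALAT1, NEAT1, CYTOR and UCA1, and the highest for PVT1. That sample also had the smallest share of mitochondrially encoded TPM, 6.67%. Empty vector replicate 3 was the lowest of its group for 4 of the 7, among them MALAT1 and NEAT1, with a mitochondrial share of 9.65%. The part of the mitochondrial share in these levels was not tested.

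**Figure D4:**
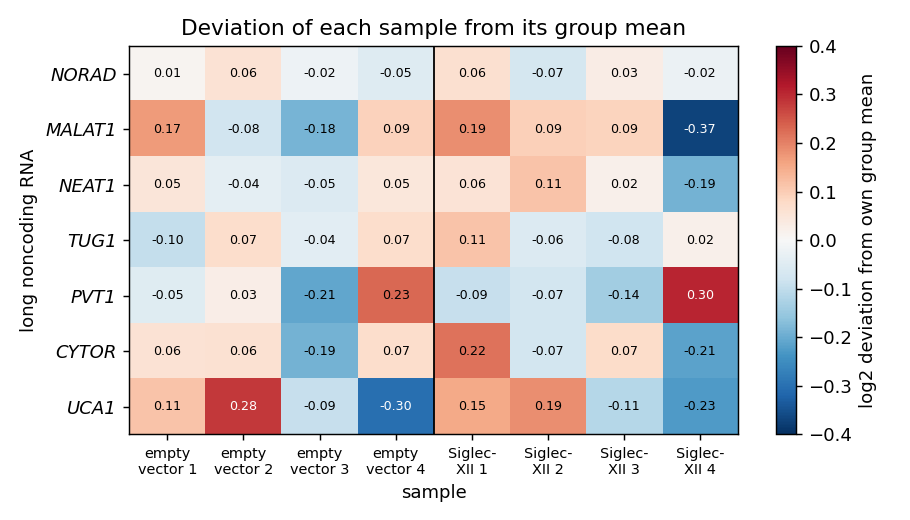
The colour and the number in each cell give the log2 deviation of a sample from the mean of its own group, for the 7 RNAs in rows and the 8 samples in columns. MALAT1 and NEAT1 fall together in Siglec-XII replicate 4, at -0.37 and -0.19, where PVT1 is at 0.30.

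The proteins that work with these RNAs were read from fixed lists in the same fit. Of 18 paraspeckle proteins 0 passed an adjusted p of 0.05, 3 had an unadjusted p under 0.05, and the median log2 fold change was 0.031. SFPQ and NONO, the core pair that binds NEAT1, had 0.012 and 0.022 (limma adjusted p = 0.959 and 0.941). The lowest p values belonged to TARDBP and HNRNPK. TARDBP, an RNA-binding protein also known as TDP-43, was at 290 ± 9.19 and 326 ± 5.74 TPM (SD, n = 4, limma adjusted p = 0.0978). HNRNPK had 0.13 (limma adjusted p = 0.149). HNRNPA1, also under 0.05 unadjusted, went the other way, with -0.13 (limma adjusted p = 0.233). Of 17 nuclear speckle proteins 0 passed and 2 had an unadjusted p under 0.05, with 9 above 0. These were the splicing factors SRSF1, with a log2 fold change of 0.15 (limma adjusted p = 0.123), and SRSF2, with 0.17 (limma adjusted p = 0.137). Of 13 RNase P and tRNA-like end processing genes 0 passed and 3 had an unadjusted p under 0.05. RPP21 had the lowest p of these, with a log2 fold change of -0.27 (limma adjusted p = 0.193), on the highest of its 7 entries. RPPH1, the RNA subunit of RNase P, was low, at 4.38 ± 1.82 and 2.22 ± 0.580 TPM (SD, n = 4, limma adjusted p = 0.202). METTL16, which binds the MALAT1 triple helix, had a log2 fold change of 0.13 (limma adjusted p = 0.289). Of 7 nuclear RNA decay adaptors 0 passed and 0 had an unadjusted p under 0.05.

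Of 6 Pumilio proteins and other NORAD binders 1 passed, upward, where 0.34% of all entries passed in that direction. ALYREF, an mRNA export adaptor, rose from 295 ± 17.5 to 367 ± 15.4 TPM (SD, n = 4), a log2 fold change of 0.31 (limma adjusted p = 0.0365). That call was lost in 15 of 20 alternatives, where the adjusted p reached 0.121, and without each of the 8 samples in turn. PUM2 was at 49.8 ± 1.71 and 55.8 ± 1.45 TPM (SD, n = 4). It did not pass (limma adjusted p = 0.148). Every Siglec-XII sample lay above every empty vector sample, where 10.8% of all tested entries had groups that did not overlap. Of 11 genes of Polycomb repressive complex 2 and its partners, 0 passed and 1 had an unadjusted p under 0.05, JARID2, with a log2 fold change of 0.26 (limma adjusted p = 0.109).

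PVT1 and NEAT1 are known p53 targets, so other p53 targets were read as well. Of 17 genes 16 were tested, 0 passed, 2 had an unadjusted p under 0.05 and 1 of the 16 was below 0, where 4970 of all 15590 tested entries were. The median was 0.096, beside 0.067 over all tested entries. GDF15, a secreted stress factor, was the gene too low to test. It was at 0.770 to 1.08 TPM with the empty vector and at 0.259 to 0.455 TPM with Siglec-XII. These groups did not overlap, as in 10.8% of all tested entries, and the depth behind such low values is unknown. XPC, a DNA damage sensor, had 0.20 (limma adjusted p = 0.196) and MDM2, which degrades p53, 0.013 (limma adjusted p = 0.947).

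Other well-known lncRNAs were read from a fixed list as well. Of all 1340 tested lncRNA entries, 5 passed downward and 1 upward. Of 24 genes 15 were tested, 2 passed, both downward, where 0.308% of all entries passed in that direction, and the median was -0.057. EPB41L4A-AS1 fell from 70.1 ± 1.23 to 49.2 ± 3.89 TPM (SD, n = 4), a log2 fold change of -0.50 (limma adjusted p = 0.00418). ZFAS1 fell from 502 ± 24.3 to 407 ± 11.1 TPM (SD, n = 4), a log2 fold change of -0.30 (limma adjusted p = 0.0200), a call lost in 7 of 20 alternatives. In both, all Siglec-XII samples lay below all empty vector samples. GAS5 had -0.26 (limma adjusted p = 0.137). H19, the most abundant of the list with ZFAS1, was at 481 ± 85.3 and 458 ± 26.3 TPM (SD, n = 4, limma adjusted p = 0.831).

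The genes beside the 7 RNAs were read as the 2 nearest tested entries on each side in the GENCODE annotation on GRCh37. Of 25 such entries other than the 7 themselves, 0 passed an adjusted p of 0.05 and 7 had an unadjusted p under 0.05, beside 16.5% of all tested entries. Of the 25, 20 were above 0, where 4970 of 15590 tested entries were below 0. Between NEAT1 (chromosome 11, 65190245 to 65213011) and MALAT1 (65265111 to 65275544), which lie 52.1 kb apart, the pseudogene AP000769.1 was at 6.94 and 8.47 TPM in the 2 groups. FRMD8, 9.25 kb from NEAT1 on the other side, had a log2 fold change of 0.28 (limma adjusted p = 0.232). MORC2, a chromatin regulator that lies 0.471 kb from TUG1 (chromosome 22, 31365231 to 31375381), had 0.069 (limma adjusted p = 0.621). MYC, the transcription factor gene 51.6 kb from PVT1 (chromosome 8, 128806772 to 129199347), was at 143 and 162 TPM, with 0.18 (limma adjusted p = 0.115), while PVT1 had 0.0078. Beside NORAD (chromosome 20, 34633540 to 34638940), CNBD2 at 14.9 kb had -0.41 (limma adjusted p = 0.317) and EPB41L1 at 40.5 kb on the other side 0.27 (limma adjusted p = 0.279). The tested entry nearest CYTOR (chromosome 2, 87754300 to 87936259) was KRCC1, 390 kb away, with -0.39 (limma adjusted p = 0.104). The entries nearest UCA1 (chromosome 19, 15939016 to 15947138) were at least 216 kb away, among them TPM4 with -0.10 (limma adjusted p = 0.493).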

How the data were processed

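RNA from 8 Caco-2 samples was sequenced as 100 bp paired reads. The authors quantified it with kallisto (0.45.0 in the submitters' processing notes) against human build hg19 and deposited log2(TPM + 1) per gene entry. Each deposited column, taken back from log2, sums to 1e+06, so read depth is not recoverable and no counting interval is given. Samples were grouped by their titles. Entries at 1 TPM or more in at least 4 samples entered a limma fit (version 3.58.1, R 4.3.3, eBayes with trend, Benjamini-Hochberg over 15590 entries), tested first on simulated data. The pseudocount of 1 is the authors', and fold changes are on the log2(TPM + 1) scale. Single values were compared by exact permutation (scipy 1.17.1). Positions and sequences come from GENCODE v44 lifted to GRCh37 and its genome, matched by gene ID (55485 of 63816 entries), and alignments from blastn 2.17.0. Colon, trophoblast and partner lists, and the members, were chosen with earlier results of these data known. From each list, genes passing, or else the 3 lowest p, and the 2 highest levels could be named, and the nearest entries; SFPQ and NONO were named after their values were seen. Replicate numbers did not pair samples (correlations of deviations from -0.07 to 0.06). The values of 1 gene of the NORAD binder list are not reported here.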

Additional observations from a re-analysis of the deposited data

Results flagged for a closer look

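Among 28 sets of 4 samples examined, 3 held a sample whose gap to the next exceeded Dixon's 95% critical value, where chance gives about 1 set in 20. PVT1 was at a log2(TPM + 1) of 5.33 in Siglec-XII replicate 4, with the other 3 samples of the group at 4.95 or less. CYTOR was at 4.53 in empty vector replicate 3, below the other 3, which lay between 4.78 and 4.79. EPB41L4A-AS1 was at 5.81 in the highest Siglec-XII sample, which was still below every empty vector sample.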

How the results depend on the processing

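In 20 alternatives 0 of the 7 RNAs passed an adjusted p of 0.05, and the lowest adjusted p of any was 0.228. NORAD, TUG1 and CYTOR kept their sign in all 20. PVT1, near 0, became -0.059 with quantile normalization, -0.052 with equal upper quartiles, -0.014 with rescaling to protein-coding genes and -0.034 with the length trend removed, and NEAT1 became 0.028 with array weights. With 1 sample left out at a time the log2 fold change ran from -0.18 to 0.0060 for MALAT1, -0.041 to 0.060 for NEAT1, -0.094 to 0.084 for PVT1 and -0.023 to 0.17 for UCA1. The count of all called entries was 101 (53 higher, 48 lower), 51 with no filter, 34 with small structured RNAs left out, 54 without the trend and 49 to 159 with 1 sample left out (49 without empty vector replicate 3, 159 without empty vector replicate 2). The split was 28 higher and 58 lower with quantile normalization, 24 and 58 with equal upper quartiles and 21 and 58 with the length trend removed. The other lncRNA list had 1 call with no filter, without the trend and with the replicate block, and 1 to 2 with 1 sample left out. The NORAD binder list had 0 calls with no filter, quantile normalization, equal upper quartiles, small structured RNAs left out, the length trend removed, the replicate block, no trend and each sample left out. The causes were not tested. With the replicate block 69 entries were called and 0 of the 7 RNAs, 2 of 4 empty vector samples correlated best with their own number, and the calls of ZFAS1 and ALYREF were lost (adjusted p = 0.0955 and 0.0761). Depth is unknown, so precision at low levels cannot be stated.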

Other observations

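The protein-coding entries whose samples followed MALAT1 most closely within groups were ZSCAN12 (Pearson r = 0.99), PNPT1 (0.98) and SEM1 (0.97), over 8 samples with group means removed. PNPT1 encodes a mitochondrial RNA-degrading enzyme and SEM1 a small proteasome subunit. For NEAT1 they were GGPS1 (0.97), AC114490.2 (0.93) and RNF214 (0.93), and for NORAD CWF19L2 (0.99), DSP (0.98) and SEC24A (0.98). DSP encodes the desmosome protein desmoplakin and SEC24A a coat protein of transport vesicles. Of 12068 entries compared, 27 had an r over 0.9 with MALAT1, 6 with NEAT1 and 83 with NORAD. With so many entries and 8 samples such values arise readily, and they are given as a description.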
